A study of Rattus norvegicus with 6 samples.

Results

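The genes described here encode the neural cell adhesion molecules NCAM1 and NCAM2, the L1-type adhesion molecules L1CAM and CHL1, and the polysialyltransferases ST8SIA2 and ST8SIA4. They were taken by symbol from the raw count table as Ncam1, Ncam2, L1cam, Chl1, St8sia2 and St8sia4. All 6 were present among its 29884 genes, and all 6 passed the low-count filter. They were chosen with the difference between the groups already known, so the differences of these 6 genes are given as a description, without a test.

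RNA was sequenced from the sciatic nerve of wild type rats after chronic constriction injury (CCI), a model made by tying loose ligatures around the nerve. The untreated group holds 3 libraries from CCI nerve alone. The conduit group holds 3 libraries from CCI nerve treated with PLLA-PCL-RVC, a polymer nerve conduit described as piezoelectric and carrying the local anaesthetic ropivacaine. All libraries therefore come from injured nerve, and no uninjured nerve was analysed here. The strain, age and sex of the rats, the time after injury, and whether each library is a separate animal are not given in the sources used here, so the spread between libraries may be partly technical. The tissue was whole nerve, in which fewer cells of a type and less RNA per cell cannot be told apart.

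NCAM and L1 proteins are immunoglobulin superfamily molecules on the surface of axons and Schwann cells. They bind like molecules on neighbouring cells and support axon growth and bundling. In peripheral nerve, NCAM1 and L1CAM are known from immature Schwann cells and from non-myelinating Schwann cells, which hold small axons, and are scarce on mature myelinating Schwann cells. ST8SIA2 and ST8SIA4 are Golgi enzymes that extend a chain of sialic acids, polysialic acid, mainly on NCAM1, and this bulky charged chain weakens adhesion. ST8SIA2 is known mostly from the embryonic nervous system, and ST8SIA4 also from adult brain and from leukocytes.

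The synthases showed opposite differences, so the 250 bases upstream of the start of each gene are shown, taken from RefSeq on the GRCr8 build. A promoter was found for 4 of the 6 genes, and those of the 2 synthases are shown. The St8sia2 stretch is chr1:137247754-137248003 on the minus strand, and that of St8sia4 is chr9:103532009-103532258 on the minus strand. Both are printed 5′ to 3′ in the direction of the gene, with capitals marking matches to the motifs named below.
St8sia2: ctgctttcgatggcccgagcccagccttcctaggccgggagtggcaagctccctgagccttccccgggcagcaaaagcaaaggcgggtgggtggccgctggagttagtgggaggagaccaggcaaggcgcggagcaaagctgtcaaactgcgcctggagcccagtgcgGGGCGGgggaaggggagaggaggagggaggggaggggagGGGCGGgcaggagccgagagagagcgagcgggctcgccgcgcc
St8sia4: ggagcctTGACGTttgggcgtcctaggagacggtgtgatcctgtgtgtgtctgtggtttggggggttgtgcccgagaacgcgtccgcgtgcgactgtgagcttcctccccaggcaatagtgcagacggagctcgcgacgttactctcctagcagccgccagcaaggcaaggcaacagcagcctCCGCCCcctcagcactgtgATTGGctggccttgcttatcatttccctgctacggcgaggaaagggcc

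Both stretches were rich in CpG, with 18 CpG dinucleotides for St8sia2 and 17 for St8sia4, against a median of 6 over 27457 rat promoter stretches of the same length. Their GC content was 70.4% and 61.6%, against a median of 52.0%. Motifs were searched on both strands. The GC box (GGGCGG), which occurs in 32.4% of the stretches, matched at 2 places in St8sia2, 82 and 43 bases before the start, and at 1 place in St8sia4, 67 bases before it. St8sia4 alone of this pair matched the CCAAT box (CCAAT, in 34.3% of stretches), on the reverse strand 48 bases before the start. It also matched the CRE core (TGACGT, in 7.25%), 243 bases before the start. Neither stretch matched the TATA box (TATAAA, 13.1%), the AP-1 site (TGANTCA, 6.36%), the SOX core (ACAAAG, 16.0%) or the E-box (CACGTG, 5.79%). No 2 of the capitalised matches overlap. The stretch before Chl1 differed from these, with 7 CpG dinucleotides and a GC content of 49.6%, and that before Ncam2 had 37 and 73.2%. Such matches describe the letters and say nothing of binding.

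St8sia4 was the more abundant polysialyltransferase transcript in untreated nerve, and St8sia2 in conduit nerve, where St8sia2 was 83.1-fold higher and St8sia4 3.43-fold lower. Ncam1 was 5.25-fold, L1cam 4.53-fold and Ncam2 2.67-fold higher in conduit nerve, while the Chl1 levels of the groups overlapped. Of the 6 genes, 4 had all conduit libraries above all untreated ones and 1 (St8sia4) had all below. Over all 15464 genes tested, those shares were 29.5% and 32.2%, and 61.7% had no overlap of the groups in either direction. Nothing is read from the 5 of 6 here, since these genes were picked with the values known. Their median log2 difference was 1.80, against -0.04 over all genes tested, and for the same reason nothing is read from this. Levels below are CPM, counts scaled to a common library size by TMM (trimmed mean of M-values, which allows for a few genes taking many counts), and differences are log2, conduit minus untreated, from edgeR.

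**Figure D1:**
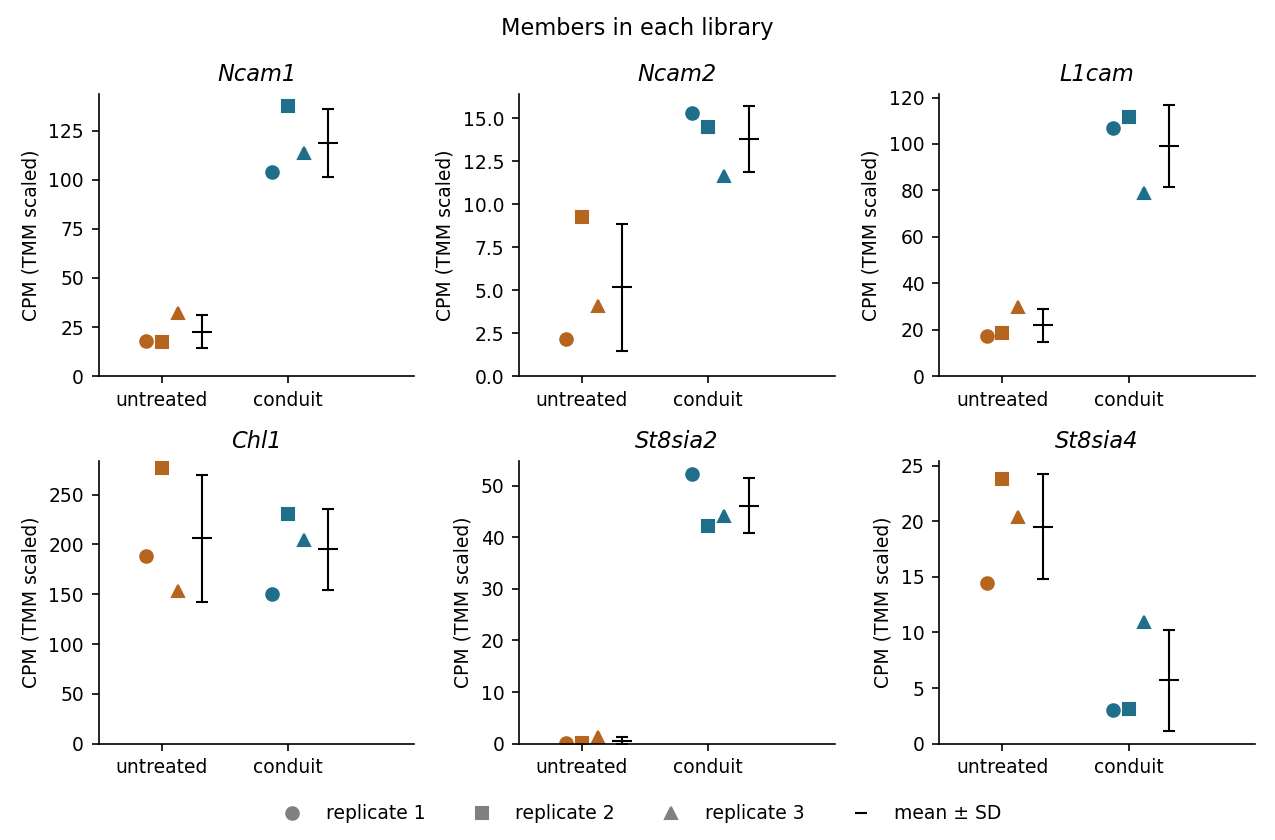
Each panel plots 1 gene, with CPM on a linear axis from 0 and the 3 untreated and 3 conduit libraries as separate symbols by replicate number. The bar beside them is the mean ± SD. Groups are apart for all genes but Chl1, and for Ncam2 the gap from 9.27 to 11.7 CPM is narrow.

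St8sia2 was counted 9, 8 and 58 times in untreated replicates 1, 2 and 3, and 1898, 1492 and 1684 times in the conduit replicates. In CPM it stood at 0.195, 0.162 and 1.33 in untreated nerve and at 52.2, 42.2 and 44.1 in conduit nerve. The conduit libraries lay close together, and the lowest of them was 31.6-fold above the highest untreated library. Untreated replicate 3 stood apart from the other 2 untreated libraries, beyond the counting error of independent reads. Exact Poisson 95% intervals were 1.01 to 1.73 CPM for replicate 3, 0.0891 to 0.370 for replicate 1 and 0.0697 to 0.318 for replicate 2. These intervals cover counting error only. PCR copies are not independent molecules, so the intervals may be too narrow. The group means were 0.564 ± 0.668 CPM and 46.2 ± 5.31 CPM (SD, n = 3 each). The log2 difference was 6.38 ± 0.72 (SE), an 83.1-fold difference. It was 7.998 without untreated replicate 3, so the fold depends on that library while the direction does not.

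St8sia4, the other polysialyltransferase, went the opposite way. It was at 14.4, 23.8 and 20.4 CPM in untreated replicates 1, 2 and 3 and at 3.00, 3.08 and 11.0 CPM in the conduit replicates. The groups did not overlap, but conduit replicate 3 was 3.66-fold above conduit replicate 1 and lay nearer to the untreated libraries. The means were 19.5 ± 4.74 and 5.68 ± 4.58 CPM, a log2 difference of -1.78 ± 0.52 (SE), or 3.43-fold lower in conduit nerve. Without conduit replicate 3 the difference was -2.64. Conduit replicate 3 also had the highest summed macrophage markers of its group, 577 CPM against 335 and 440 CPM in replicates 1 and 2, and the highest summed adipocyte markers, 818 against 165 and 203 CPM. The summed T and NK cell markers were 72.2 against 36.6 and 56.4 CPM, of which Cd4, also made by rat macrophages, was 70.2 against 34.3 and 54.2 CPM. The other T and NK cell markers were low and did not move together. Cd3e and Cd8a were lowest there, at 0.498 against 0.632 and 0.763 CPM and at 0.445 against 0.962 and 0.678 CPM. Gzmb (14, 1 and 1 counts in conduit replicates 1, 2 and 3) and Cd3d (5, 9 and 9 counts) do not order replicates 2 and 3. Nkg7 and Klrd1 were highest there, at 0.471 against 0.0550 and 0.367 CPM and at 0.262 against 0.137 and 0.0848 CPM. The summed neutrophil markers were lowest there, at 3.38 against 6.95 and 13.9 CPM. That held for S100a8 and S100a9, while Csf3r and Mmp8 were lowest in conduit replicate 1. The part of these cells in the St8sia4 level was not tested.

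Between genes, levels were compared per gene length, as the deposited FPKM (fragments per kilobase of gene, scaled to the total of the library). Of the FPKM of both synthases together, St8sia2 held 1.31%, 0.664% and 6.04% in untreated replicates 1, 2 and 3. In conduit replicates 1, 2 and 3 it held 94.5%, 93.1% and 79.8%. The share averaged 2.67 ± 2.94% in untreated and 89.1 ± 8.10% in conduit nerve (SD, n = 3). The untreated mean was 0.987% without replicate 3, and lay between that and 3.68% over the libraries left out in turn. The sum of both synthases moved far less than their balance, from 4.24 ± 1.13 to 8.24 ± 1.10 FPKM. All conduit libraries (6.99 to 9.05 FPKM) lay above all untreated ones (3.00 to 5.21 FPKM). FPKM leaves out the TMM factors, which were 1.12 to 1.18 in untreated and 0.85 to 0.90 in conduit libraries. TMM scaling would therefore lower the untreated and raise the conduit sums, while shares within a library do not depend on it.

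**Figure D2:**
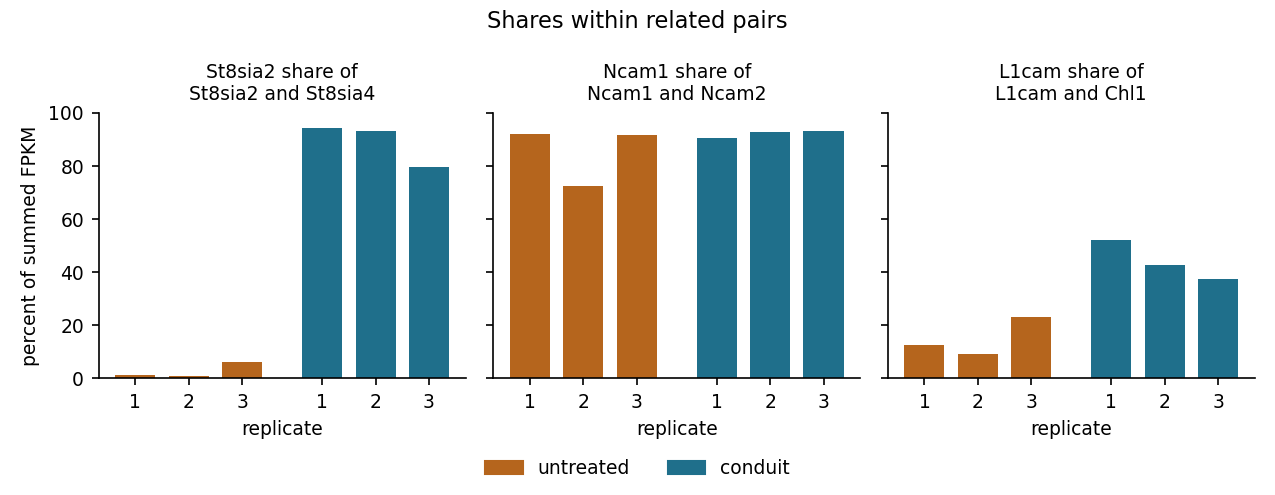
Bars give, for each library, the percent that the first gene holds of the summed FPKM of a pair of related genes, with replicate numbers on the horizontal axis. The St8sia2 share is at most 6.04% in untreated and at least 79.8% in conduit libraries, the L1cam share is also apart, and the Ncam1 share overlaps.

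Ncam1, the main carrier of polysialic acid, was at 18.1, 17.3 and 32.3 CPM in untreated replicates 1, 2 and 3 and at 104, 138 and 114 CPM in the conduit replicates. All conduit libraries were at least 3.22-fold above the highest untreated library, which again was replicate 3. The means were 22.6 ± 8.43 and 118 ± 17.3 CPM, and the log2 difference was 2.39 ± 0.27 (SE), a 5.25-fold difference. Counts over a whole gene do not tell NCAM1 isoforms apart, so membrane-spanning and lipid-anchored forms are pooled in these values.

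Ncam2, its paralog with known roles in olfactory axons, was far less abundant. It was at 2.14, 9.27 and 4.07 CPM in untreated nerve and at 15.3, 14.5 and 11.7 CPM in conduit nerve. The untreated libraries spread 4.33-fold, and replicate 2 came within 1.26-fold of the lowest conduit library. The log2 difference was 1.42 ± 0.48 (SE), and it was 2.15 without untreated replicate 2. On the FPKM scale, which divides by library totals, the groups overlapped, since untreated replicate 2 (0.824 FPKM) lay above conduit replicate 3 (0.793 FPKM). Ncam1 made up 92.2%, 72.3% and 91.7% of the FPKM of the pair in untreated and 90.5%, 93.0% and 93.2% in conduit libraries. These shares overlapped, and untreated replicate 2 alone was low.

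L1cam, the founder of the L1 family, was at 17.3, 18.4 and 30.0 CPM in untreated replicates 1, 2 and 3 and at 107, 112 and 79.0 CPM in the conduit replicates. The lowest conduit library was 2.64-fold above the highest untreated one. Means were 21.9 ± 7.04 and 99.1 ± 17.6 CPM, with a log2 difference of 2.18 ± 0.25 (SE), a 4.53-fold difference.

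Chl1, the close homolog of L1, did not separate the groups. It was at 189, 277 and 153 CPM in untreated nerve and at 150, 230 and 205 CPM in conduit nerve. The means were 206 ± 63.9 and 195 ± 40.9 CPM, and the log2 difference was -0.08 ± 0.25 (SE). Leaving out single libraries put it between -0.25 and 0.19, so its sign is not settled. L1cam made up 12.4%, 9.28% and 23.2% of the FPKM of the L1cam and Chl1 pair in untreated libraries, and 52.3%, 42.7% and 37.3% in conduit libraries. The sum of the pair overlapped between groups on this scale, at 27.4 to 44.0 FPKM untreated and 33.3 to 41.7 FPKM in conduit nerve. FPKM leaves out the TMM factors, which would lower the untreated and raise the conduit sums. The overlap is therefore given for library totals only.

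Within the untreated group, replicate 3 was highest for Ncam1, L1cam and St8sia2, and replicate 2 for Ncam2, Chl1 and St8sia4. Replicate 3 carries another batch label (2) than replicates 1 and 2 (1), and the conduit libraries carry 3 further labels, so the batches and the treatment cannot be told apart. Summed markers of myelinating Schwann cells (Mbp, Pmp22, Prx, Drp2 and Pllp) were also highest in replicate 3 among the untreated libraries, at 9435 CPM in replicate 3, 6671 in replicate 1 and 4230 in replicate 2, and their part in the order of these 6 genes was not tested. Untreated replicate 1 held 9934 CPM of skeletal muscle markers, while the other 5 libraries held 3.45 to 72.3 CPM. Summed markers of denervated or regenerating muscle, led by Myog, were at 22.0 CPM in untreated replicate 1, against 0.788 and 1.06 CPM in replicates 2 and 3. Ncam1 is also made by denervated muscle, and its level in replicate 1 (18.1 CPM) lay beside that in replicate 2 (17.3 CPM). Without replicate 1 the log2 difference of Ncam1 was 2.25. The part of muscle in the Ncam1 level was not tested.

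The order of the 6 levels per gene length differed between the groups. In untreated nerve Chl1 was highest (28.9 ± 9.81 FPKM), then L1cam (4.69 ± 1.47), St8sia4 (4.13 ± 1.11), Ncam1 (2.71 ± 0.986), Ncam2 (0.450 ± 0.335) and St8sia2 (0.116 ± 0.137). The libraries of L1cam and St8sia4 overlapped, as did those of St8sia4 and Ncam1 and those of Ncam2 and St8sia2, so these neighbours are not ordered beyond their spread. In conduit nerve the order was Chl1 (20.8 ± 4.30), L1cam (16.2 ± 2.43), Ncam1 (10.9 ± 1.42), St8sia2 (7.31 ± 0.847), St8sia4 (0.930 ± 0.778) and Ncam2 (0.906 ± 0.105). There, Chl1 overlapped L1cam and St8sia4 overlapped Ncam2. St8sia2 thus stood last of the 6 in untreated nerve and the fourth in conduit nerve.

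**Figure D3:**
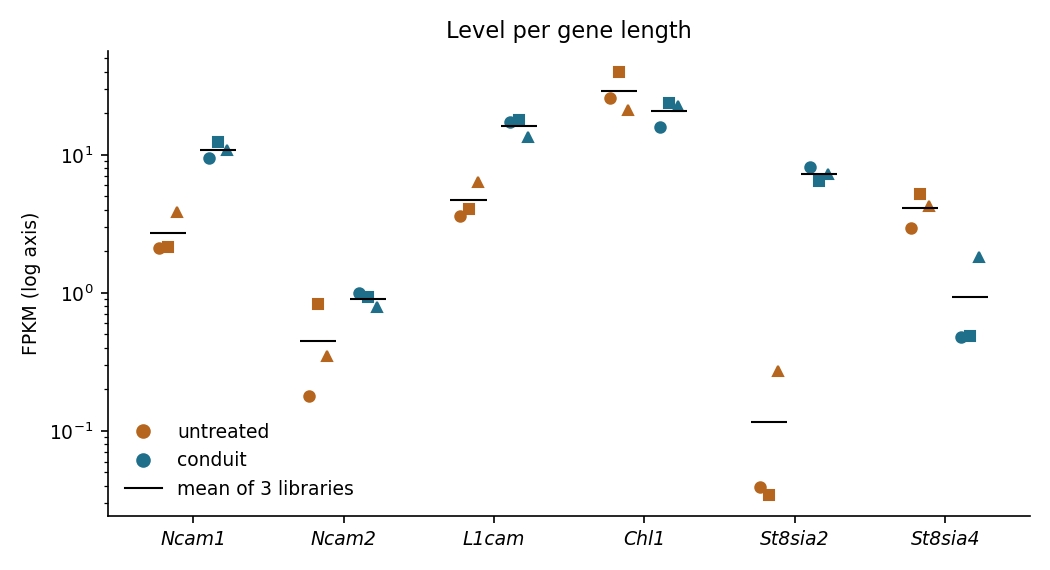
FPKM of the 6 genes is drawn on a log axis, with untreated and conduit libraries side by side and a line at each mean of 3 libraries (circle, square and triangle are replicates 1, 2 and 3). Chl1 is highest in both groups, and St8sia2 moves from the lowest mean, 0.116 FPKM, to 7.31 FPKM.

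Because Schwann cell transcripts differed between the groups, the levels of the 6 genes were also set against Sox10 and S100b, transcripts of the whole Schwann cell lineage, in the same library. Sox10 itself was higher in conduit nerve by 1.26 ± 0.13 and S100b by 2.25 ± 0.19 (log2 ± SE), so the choice of reference matters. Relative to Sox10, Ncam1 differed by 1.13, L1cam by 0.92, St8sia2 by 5.12, Ncam2 by 0.16, Chl1 by -1.34 and St8sia4 by -3.04 on the log2 scale. Relative to S100b, these were 0.14, -0.07, 4.13, -0.83, -2.33 and -4.03, in the same order. Ratios of Ncam1, Ncam2 and L1cam to S100b, and of Ncam2 to Sox10, overlapped between the groups. The ratio of L1cam to S100b, for example, was 0.0203 to 0.0351 in untreated and 0.0230 to 0.0292 in conduit libraries. By either reference St8sia2 was higher and St8sia4 and Chl1 were lower in every conduit library than in every untreated one. These settings were added after the values were seen.

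**Figure D4:**
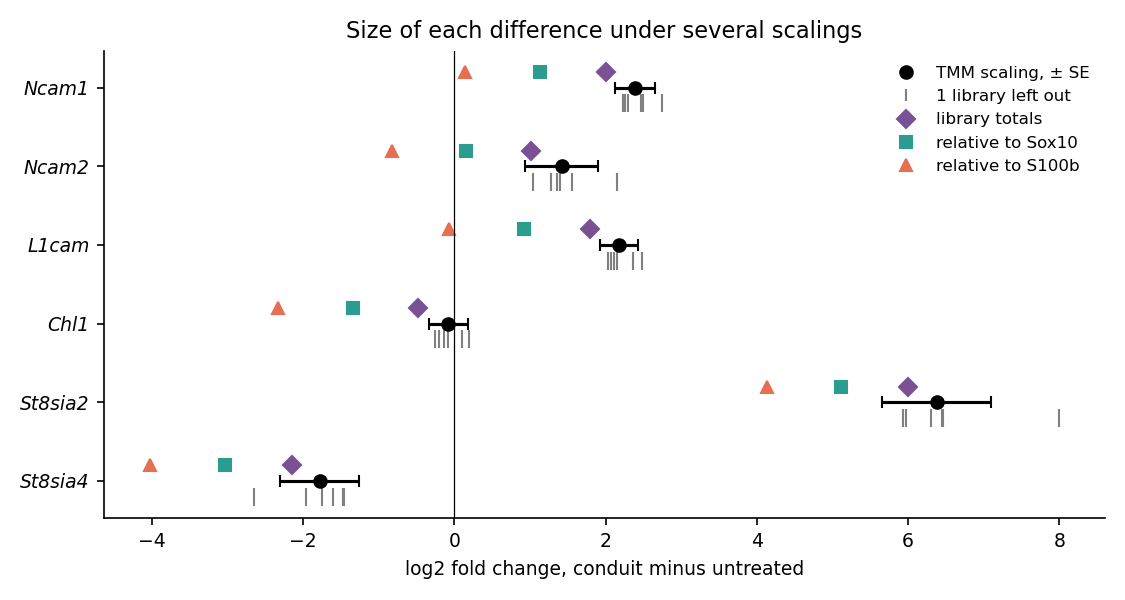
The horizontal axis is the log2 difference, conduit minus untreated, for each of the 6 genes. Black points are TMM-scaled values ± SE, grey ticks leave out 1 library each, and coloured symbols use library totals, Sox10 or S100b as the reference. St8sia2 and St8sia4 keep their sign under all of these, while Ncam2 and L1cam lie at -0.83 and -0.07 relative to S100b.

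For each gene, the 3 most similar patterns over the 6 libraries were sought among the 11812 genes whose higher group averaged 5 CPM or more, by the root mean square difference of log2 CPM centred on its mean. For Ncam1 these were Abca9 (0.104), Kcna1, a potassium channel (0.109), and Nr4a1 (0.128). For L1cam they were Arhgef19 (0.093), Pard6g (0.121) and Sh3glb2 (0.130). Chl1 was nearest to Unc5b, a netrin receptor (0.074), Nufip2 (0.105) and Mtdh (0.112). Ncam2 was nearest to Frg1l1 (0.133), Cav2, caveolin 2 (0.172), and Gjc3, a connexin (0.263). St8sia4 had Trib1 (0.258), Lacc1 (0.267) and Slco2a1, a prostaglandin transporter (0.286). St8sia2 had the least close neighbours, Ddn at 0.312, Smim45 at 0.545 and Rlbp1 at 0.660. Ddn was at 0.368, 0.182 and 1.70 CPM in untreated and 49.2, 67.2 and 47.1 CPM in conduit libraries. Like St8sia2 it was highest of the untreated libraries in replicate 3, which a choice by likeness over these same libraries favours.

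The wider system was described with 91 other genes grouped by function, of which 82 could be tested. Of these, 28 rose and 23 fell in conduit nerve (edgeR quasi-likelihood test, Benjamini-Hochberg adjusted p under 0.05), or 62.2%. Of all genes tested, 50.2% were called, 24.0% higher and 26.2% lower. The median log2 difference of the 82 was 0.09, against -0.04 over all genes. With library totals in place of TMM, which shifts the median of all genes to -0.43, the split was 19 higher and 32 lower, so the higher share of the called genes fell from 54.9% to 37.3%. Adjusted p-values below are from edgeR.

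Other sialyltransferases of the ST8SIA family also changed. St8sia5, which adds sialic acids to gangliosides, rose from 1.74 ± 1.30 to 51.6 ± 6.38 CPM (log2 4.90 ± 0.69 SE, adjusted p = 0.00112). St8sia6, which acts on O-linked glycans, rose from 1.33 ± 0.802 to 19.2 ± 5.63 CPM (3.85 ± 0.46, adjusted p = 0.000529, and 4.44 without untreated replicate 3). St8sia1, the GD3 ganglioside synthase, fell from 1.14 ± 0.285 to 0.126 ± 0.0727 CPM (-3.15 ± 0.51, adjusted p = 0.0021). With 3, 3 and 8 counts in the conduit replicates, the size of that fall is uncertain. St8sia3 was too low to test. Per gene length, conduit nerve held 7.31 ± 0.847 FPKM of St8sia2, 3.42 ± 0.329 of St8sia5 and 2.00 ± 0.536 of St8sia6, and untreated nerve held 0.116 ± 0.137, 0.148 ± 0.110 and 0.183 ± 0.109 FPKM. Among the enzymes that add single sialic acids, St3gal3 rose (1.60 ± 0.17, adjusted p = 0.000316), while St3gal4 (-1.04 ± 0.18, adjusted p = 0.00275) and St3gal1 (-1.01 ± 0.27, adjusted p = 0.0181) fell. The call of St3gal1 was lost without untreated replicate 2 (0.0507) or conduit replicate 2 (0.0623). Of the 10 sialyltransferases tested besides St8sia2 and St8sia4, 3 rose, 3 fell and 4 did not pass.

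Of 5 genes that supply activated sialic acid, the substrate of both synthases, 1 rose and 2 fell. Nans, the sialic acid synthase, fell from 78.4 ± 3.91 to 26.2 ± 1.59 CPM (-1.58 ± 0.11, adjusted p = 0.000101). Gne, the first and rate-limiting enzyme, fell by 0.54 on the log2 scale (± 0.14, adjusted p = 0.0141), and did not pass without conduit replicate 2 (adjusted p = 0.08) or 3 (0.062). Cmas, which couples sialic acid to CMP, rose (0.46 ± 0.15, adjusted p = 0.0382). It did not pass with library totals (0.07, adjusted p = 0.674), by limma on FPKM, or in fits that lacked untreated replicate 2 (0.0645), untreated replicate 3 (0.0712), conduit replicate 1 (0.105) or conduit replicate 2 (0.078). The phosphatase Nanp (0.35 ± 0.16) and the Golgi transporter Slc35a1 (-0.30 ± 0.15) did not pass. Slc35a1 did pass as lower in 4 of 16 alternative fits, among them library totals (adjusted p = 0.00982).

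Of 7 genes for removal and breakdown of sialic acid, 5 could be tested, 3 fell and 0 rose. Neu1, the lysosomal sialidase, fell from 26.1 ± 2.79 to 15.6 ± 0.374 CPM (adjusted p = 0.00279). Npl, which splits free sialic acid, fell from 51.5 ± 28.9 to 15.3 ± 2.64 CPM (adjusted p = 0.0065). Renbp (-0.53 ± 0.14, adjusted p = 0.0165) did not pass without conduit replicate 1 (0.0766) or 3 (0.0674). Neu3 (-0.19 ± 0.36) and the lysosomal exporter Slc17a5 (-0.15 ± 0.22) did not pass, although Neu3 did as lower by limma on log2(FPKM + 1) without the filter (-0.12, adjusted p = 0.0251). Neu2 was too low to test, and Neu4 had 0 counts in every library. Beside these genes, all 6 macrophage markers fell, with summed levels of 2510 to 2966 CPM in untreated and 335 to 577 CPM in conduit libraries, and their part in these values was not tested.

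Among 13 tested relatives in the neural immunoglobulin superfamily, 7 rose and 1 fell. Nfasc, neurofascin of the L1 family, which marks nodes and paranodes, rose from 52.3 ± 9.64 to 490 ± 29.9 CPM (3.23 ± 0.18, adjusted p = 7.3e-05). The adhesion molecules Cadm2 (2.74 ± 0.35), Cadm3 (2.45 ± 0.29) and Cadm4 (1.73 ± 0.22) of the Schwann cell and axon contact rose as well (adjusted p = 0.000687, 0.000511 and 0.000645). The 1 that fell was Nrcam, the remaining L1 family member, from 266, 289 and 172 CPM in untreated replicates 1, 2 and 3 to 86.0, 84.5 and 76.4 CPM in the conduit replicates (-1.56 ± 0.21, adjusted p = 0.000858). The 4 L1 family genes therefore took 3 courses: L1cam and Nfasc were higher, Nrcam was lower, and Chl1 overlapped. Mag, myelin-associated glycoprotein, rose from 27.3 ± 16.3 to 323 ± 35.4 CPM (3.57 ± 0.52, adjusted p = 0.00128), the largest rise of the 13. Beside these genes, the 5 myelinating Schwann cell markers all rose, with summed levels of 4230 to 9435 CPM in untreated and 64690 to 78805 CPM in conduit libraries, and their part in these values was not tested. Of the 17 relatives, 4 contactins were too low to test.

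Of 15 tested extracellular partners, 3 rose and 4 fell. Cdh2, N-cadherin, rose from 7.29 ± 1.03 to 35.5 ± 5.02 CPM (2.28 ± 0.17, adjusted p = 0.000115), and Hspg2, perlecan, by 1.32 ± 0.22 (adjusted p = 0.0022). Itga5, the fibronectin receptor chain (-1.18 ± 0.17, adjusted p = 0.00138), and Nrp1, neuropilin 1, which pairs with L1CAM in semaphorin reception (-1.34 ± 0.31, adjusted p = 0.0101), fell. Fgfr1, the growth factor receptor through which NCAM1 and L1CAM can signal, did not pass (0.18, adjusted p = 0.465). Fgfr1, and likewise Fyn, Mag, St3gal1, St3gal4 and, of the linkers, those that fell, were chosen after their values were seen.

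Of 20 intracellular linkers and signalling genes, 8 rose and 5 fell. Among those that rose were Ank3, ankyrin G, from 67.3 ± 8.15 to 249 ± 14.6 CPM (1.89 ± 0.14, adjusted p = 0.000114), Ank2 at 1.40 ± 0.17 (adjusted p = 0.000518) and Sptan1, spectrin, at 1.50 ± 0.21 (adjusted p = 0.00105). Ezrin and moesin, which also link L1 family proteins to the cell's skeleton, were among those that fell. Ezr was at -0.81 ± 0.15 (log2, adjusted p = 0.00329). Msn, at -1.02 ± 0.35 (adjusted p = 0.0452), did not pass with the replicate block (0.0612), by unfiltered limma on FPKM (0.0517), or when untreated replicate 2 was left out (-0.50, adjusted p = 0.0667), nor in fits lacking conduit replicate 1 (0.133), 2 (0.135) or 3 (0.0749). The others that fell were Gap43, Prkcb and Dcx (-1.49, -0.66 and -4.01), and Dcx did not pass by unfiltered limma on FPKM (adjusted p = 0.181) or without conduit replicate 2 (0.0523). Dpysl2, which takes part in L1CAM trafficking, rose by 1.03 ± 0.15 (adjusted p = 0.0012). Fyn, the kinase downstream of NCAM1, did not pass (0.08, adjusted p = 0.717), and its sign was negative with library totals, as was that of Fgfr1 (-0.32 and -0.21).

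Of 9 proteases that can cut these adhesion molecules from the surface, 3 rose and 4 fell. Adam10 rose from 86.9 ± 24.6 to 249 ± 2.55 CPM (1.52 ± 0.21, adjusted p = 0.00103) and Bace1, which cuts CHL1, from 23.5 ± 2.90 to 78.1 ± 5.82 CPM (1.73 ± 0.14, adjusted p = 0.000126). Mmp9 (-6.11 ± 0.61, adjusted p = 0.00026) and Adam8 (-3.60 ± 0.46, adjusted p = 0.000712), both also made by myeloid cells, fell. Only 3, 4 and 8 counts of Mmp9 were found in the conduit replicates, which limits its fold. Of 5 other proteins known to carry polysialic acid, 3 rose and 1 fell. Nrp2, neuropilin 2, rose (0.68 ± 0.14, adjusted p = 0.0056), but did not pass with library totals (adjusted p = 0.132) or limma on FPKM. Cadm1 (0.51 ± 0.17, adjusted p = 0.0396) and Glg1 (0.44 ± 0.14, adjusted p = 0.0335) rose, and neither passed with library totals (adjusted p = 0.569 and 0.751). Of 16 alternative fits, 8 lost the call of Cadm1 and 8 that of Glg1, not all of which are named here. Cadm1 lost its call when untreated replicate 1 (0.0765), untreated replicate 3 (0.114), conduit replicate 1 (0.127) or conduit replicate 2 (0.133) was left out, and Glg1 when untreated replicate 1 (0.0822), untreated replicate 2 (0.0635), conduit replicate 2 (0.111) or conduit replicate 3 (0.0771) was. Ccr7, a chemokine receptor of dendritic cells and T cells, fell (-3.47 ± 0.49, adjusted p = 0.00109), with 6, 4 and 4 counts in the conduit replicates. Cd36 did not pass (-0.92 ± 0.72), and was at -1.95 (adjusted p = 0.0461) without conduit replicate 3.

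**Figure D5:**
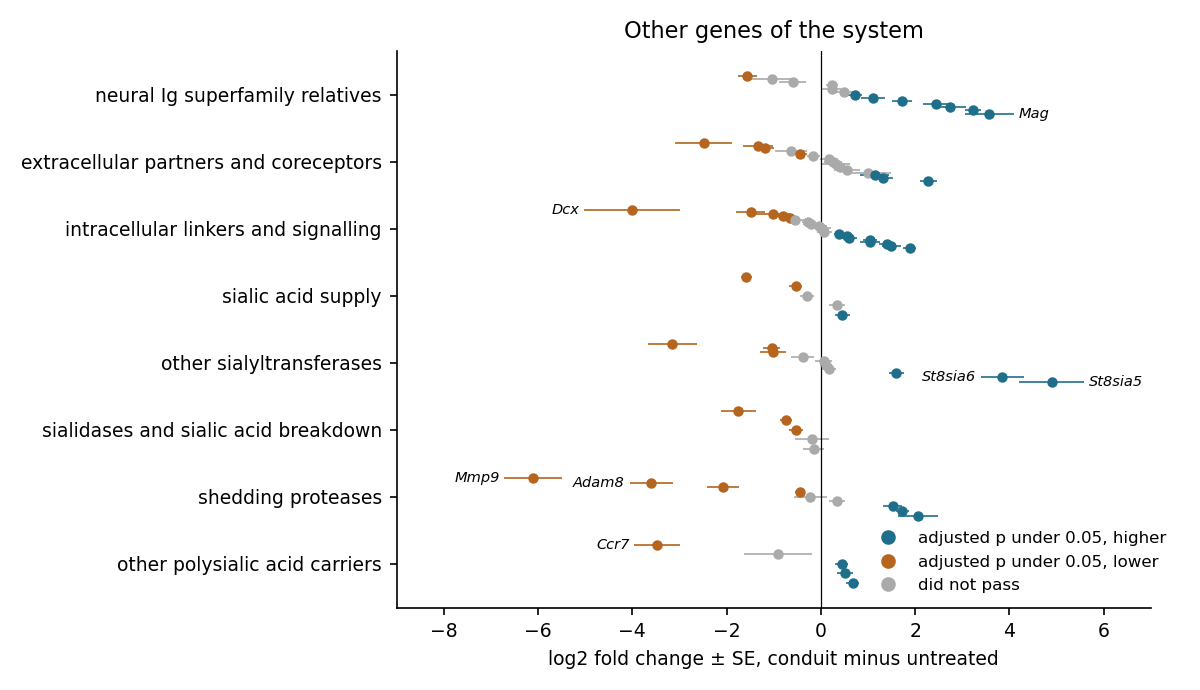
Points are log2 differences ± SE, conduit minus untreated, for the 82 tested genes in 8 groups by function, with blue for higher, brown for lower and grey for genes that did not pass. Both directions appear in each group except the sialidases, where 3 fell and 0 rose, and St8sia5 and Mmp9 are the outermost points.

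Library totals ran from 38401951 to 42225086 counts. Markers check the tissue and give its other cells. Schwann cell lineage markers (Sox10, S100b and Erbb3) summed to 1081 to 1202 CPM in untreated and 3698 to 5312 CPM in conduit libraries, and all 3 rose. The 5 myelinating markers, led by Pmp22, summed to 4230 to 9435 and 64690 to 78805 CPM, and all 5 rose. Of 4 non-myelinating markers, Scn7a and Cdh2 rose, Ngfr fell and Gfap did not pass, with sums of 683 to 875 and 957 to 1126 CPM. Of 7 repair Schwann cell markers, led by Jun, 5 fell and Olig1 rose, with sums of 631 to 858 and 127 to 176 CPM. Neuronal markers, led by Nefl, summed to 60.5 to 195 and 58.7 to 85.8 CPM, and of these 9 genes 2 rose and 2 fell. All 4 proliferation markers, led by Mki67, fell, with sums of 172 to 233 and 8.71 to 16.4 CPM. T and NK cell markers, led by Cd4 (177 to 264 and 36.6 to 72.2 CPM, 6 of 7 lower), and neutrophil markers, led by S100a9 (47.0 to 104 and 3.38 to 13.9 CPM, 3 of 4 lower), did not overlap between the groups. Sums overlapped for fibroblasts, led by Col1a1 (5199 to 9702 and 8729 to 17623 CPM), endothelium, led by Pecam1 (417 to 586 and 315 to 494 CPM), adipocytes, led by Adipoq (36.0 to 242 and 165 to 818 CPM), and denervated muscle, led by Myog (0.788 to 22.0 and 1.24 to 2.83 CPM). The part of any of these cells in the 6 genes' levels was not tested.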

How the data were processed

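The tools HTSeq, HISAT2, fastp and DESeq2 and the build mRatBN7.2 are named, per the submitters' processing notes. Versions, roles, annotation and strand setting are not given in the sources used here. Libraries were made from enriched mRNA, per the labels' protocols. The authors deposited raw counts per gene and FPKM per library. For each of the 20504 genes detected in 2 or more FPKM columns, the deposited FPKM equalled the count over 1 gene length and the library total, within a tolerance of 0.0001.

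Counts were tested with edgeR 4.0.16 (quasi-likelihood F test, two-sided, TMM, filterByExpr with a minimum count of 10, group alone) in R 4.3.3, over 15464 genes, with Benjamini-Hochberg adjustment and a threshold of 0.05. The procedure was tested on simulated data. SE is the log2 difference over the square root of F. Log2 CPM for likeness used a prior count of 2. Alternatives were RLE scaling, library totals, DESeq2 1.42.0, other filters, a replicate block, robust dispersions and each library left out. A further alternative was limma 3.58.1 on log2(FPKM + 1 or 0.1), with the log2 taken here from the deposited linear FPKM.

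The 6 genes and all lists were chosen with earlier results of these data known. Named genes are, per functional group, the called genes with the 4 smallest adjusted p, or all genes of groups with fewer than 5 called. Nrcam, and others marked in the text, were named after their values were seen. Symbols are those of the count table. Ncam1 and L1cam promoters are named only. Some Schwann cell marker genes are not reported here and are left out of the marker sums.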

Additional observations from a re-analysis of the deposited data

How the results depend on the processing

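Of the 39 named genes outside the 6 that were called, 30 kept their direction and call in every fit that tested them, and the exceptions (Gne, Cmas, Renbp, Cadm1, Nrp2, Glg1, Msn, Dcx and St3gal1) are given in the report. All genes called higher numbered 3711 with TMM, 2291 with library totals, 2044 by limma on log2(FPKM + 1), 2034 with a pseudocount of 0.1 and 2254 without the FPKM filter. Those called lower numbered 4049 with TMM and 6554 with library totals. By limma they numbered 6020 on log2(FPKM + 1), 6016 with a pseudocount of 0.1 and 6263 without the FPKM filter. The other genes of the system called higher numbered 28, and 18, 18 and 17 by the 3 limma settings. FPKM and library totals are alike in leaving out the TMM factors, and the cause of the remaining differences was not tested.

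With library totals the log2 differences were 2.006 for Ncam1, 1.789 for L1cam and -0.475 for Chl1. By limma on log2(FPKM + 1), with or without the filter, they were 1.704 for Ncam1, 0.418 for Ncam2, 1.617 for L1cam and 2.898 for St8sia2, and with a pseudocount of 0.1 they were 1.799 for L1cam and 5.269 for St8sia2. A pseudocount shrinks the log2 difference of any gene, and most where its FPKM is near or below the pseudocount. Relative to Sox10, a setting added after the values were seen, they were 1.131 for Ncam1, 0.158 for Ncam2, 0.919 for L1cam, -1.34 for Chl1, 5.117 for St8sia2 and -3.038 for St8sia4. Relative to S100b they were 0.144 for Ncam1, -0.829 for Ncam2, -0.068 for L1cam, -2.327 for Chl1, 4.13 for St8sia2 and -4.025 for St8sia4, so that Ncam2 and L1cam changed sign. With single libraries left out, St8sia2 ran from 5.926 to 7.998 and St8sia4 from -2.644 to -1.464. By counts in place of FPKM, conduit shares were 89.5% for Ncam1 and 34.0% for L1cam within their pairs.

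With the replicate number as a block, 3622 genes were higher and 3892 lower, and 30 and 23 of the system. Deviations of same-numbered libraries correlated at 0.144, -0.028 and 0.064. The same-numbered conduit library was the best match for untreated replicates 1 and 3. Untreated replicate 2 correlated best with conduit replicate 3 (0.103). Correlations this small do not settle whether the libraries are paired, and the numbers were not taken as a pairing. St8sia2 rests on 8 to 58 counts in untreated libraries, which limits its fold.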
